A study of Homo sapiens with 7 samples.

Results

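The ligands of the epidermal growth factor (EGF) family and the ERBB receptor tyrosine kinases they bind were followed in HT1080 cells, a human fibrosarcoma line, and in 6 lines derived from it by stable transfection. The 9 genes were TGFA, NRG1, HBEGF, AREG, EREG, BTC, EGFR, ERBB2 and ERBB3, and every probe that the annotation of the HumanHT-12 v4 BeadChip assigns to one of these symbols was taken. That gave 22 probes for 8 of the 9 genes, out of 30112 probes for 20045 genes with a single symbol. No probe carried the symbol AREG in the annotation used here, so AREG was not analysed here.

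shPTK7 cells carried a small hairpin RNA against PTK7, a pseudokinase of the cell surface that acts in planar cell polarity and Wnt signaling, and were a pool of 3 clones. PTK7 cells expressed the full-length membrane protein, and Chz cells expressed its Chuzhoi mutant, which carries one more site for cleavage by the membrane protease MT1-MMP. sPTK7 cells expressed the soluble ectodomain fragment. The cPTK7/622-1070 line expressed the C-terminal fragment from residue 622 to residue 1070, and the cPTK7/726-1070 line the one from residue 726. The HT1080 cells they were set against carry a scrambled control in the labels and are named parental in the methods. All 7 cultures were grown for 72 h and hybridized to 1 array per line, so no value has a replicate check and no p-value between lines can be given. How few the arrays are limits the precision.

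EGF family ligands are made as membrane-bound precursors, and proteases of the ADAM family release them to bind receptors on the same or a neighbouring cell. TGFA, AREG and EGF bind EGFR, HBEGF, EREG and BTC bind EGFR and ERBB4, and NRG1 binds ERBB3 and ERBB4. ERBB2 has no ligand of its own and serves as the preferred dimer partner, while ERBB3 has a weak kinase domain and signals through its partner. The activated dimers feed the RAS-ERK and PI3K-AKT routes.

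Between 19045 and 20515 of 47230 probes were detected per array, that is, had a detection p-value below 0.05. This p-value is the fraction of an array's negative controls that reach the probe's signal. The targeted gene PTK7 was dim throughout. Its brighter probe gave signals of 135 in shPTK7, 247 in PTK7, 296 in Chz, 141 in sPTK7, 173 in cPTK7/622-1070 and 149 in cPTK7/726-1070 cells, against 246 in HT1080 cells, and it was detected in PTK7, Chz and HT1080 cells only. Folds here were taken after background correction and normalization, so they need not equal the ratio of the printed signals, and a bound against an undetected array holds only on the scale it was taken on. PTK7 was at least 1.94-fold lower in shPTK7 cells on this scale and at least 1.28-fold lower without background correction. On this scale it was also at least 1.76-fold lower in sPTK7, 1.83-fold lower in cPTK7/622-1070 and 1.74-fold lower in cPTK7/726-1070 cells. A lower PTK7 signal was thus not particular to the line with the hairpin. PTK7 was 1.08-fold higher in PTK7 and 1.31-fold higher in Chz cells. The second PTK7 probe was detected in Chz and HT1080 cells only. It gave 189 in shPTK7 against 196 in HT1080 cells, at least 1.06-fold lower on the same scale. Whether the constructs carry the sequence under either probe is not given in the sources used here, so the probes do not check the expression of the constructs. Of 6 mesenchymal markers 4 to 6 were detected per array, with COL5A1 undetected in sPTK7 and both FN1 and COL5A1 undetected in cPTK7/726-1070 cells. Of 6 epithelial, 4 leukocyte and 4 endothelial markers with a probe at most 1 each was detected on any array. These were CLDN4 in Chz, EPCAM in sPTK7, TEK in shPTK7 and Chz, and CD14 on every array but that of Chz.

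The sequences in front of the transcription starts are shown for TGFA, HBEGF, EGFR and ERBB2. Their base composition can thus be read beside the expression values. The starts were not matched to the transcript records of the probes, so a sequence need not lie in front of the transcript measured. These 4 genes were each detected on every array, as was NRG1, whose sequence is not shown. The sequences hold the 250 bases upstream of the start, from RefSeq on GRCh38.p14, written 5′ to 3′ on the gene's own strand. Capitals mark matches, on either strand, to the GC box GGGCGG, the AP-1 site TGANTCA, the cyclic AMP response element TGACGTCA, the TEAD site GGAATG or the TATA box TATAAA.
TGFA chr2:70553827-70554076 (- strand): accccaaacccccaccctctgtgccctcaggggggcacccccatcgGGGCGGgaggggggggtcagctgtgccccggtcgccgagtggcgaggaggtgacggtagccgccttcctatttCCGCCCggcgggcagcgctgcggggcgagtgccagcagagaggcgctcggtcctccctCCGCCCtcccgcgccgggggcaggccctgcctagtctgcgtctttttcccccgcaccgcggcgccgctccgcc
HBEGF chr5:140346604-140346853 (- strand): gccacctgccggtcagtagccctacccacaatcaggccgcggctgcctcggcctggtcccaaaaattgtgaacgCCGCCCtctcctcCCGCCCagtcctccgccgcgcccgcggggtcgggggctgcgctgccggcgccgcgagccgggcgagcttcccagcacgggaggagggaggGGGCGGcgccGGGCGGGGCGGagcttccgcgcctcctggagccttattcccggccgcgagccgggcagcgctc
EGFR chr7:55018767-55019016 (+ strand): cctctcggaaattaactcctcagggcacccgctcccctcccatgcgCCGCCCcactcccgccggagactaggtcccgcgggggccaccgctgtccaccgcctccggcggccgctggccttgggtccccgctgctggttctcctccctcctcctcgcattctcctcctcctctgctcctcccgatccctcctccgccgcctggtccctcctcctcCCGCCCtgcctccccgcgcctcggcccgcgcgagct
ERBB2 chr17:39687844-39688093 (+ strand): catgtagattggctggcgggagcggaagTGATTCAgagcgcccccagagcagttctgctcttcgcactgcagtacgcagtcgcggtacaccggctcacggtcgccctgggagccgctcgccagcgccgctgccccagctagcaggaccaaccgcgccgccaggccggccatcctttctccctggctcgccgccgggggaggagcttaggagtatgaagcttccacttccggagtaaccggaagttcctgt
The window of TGFA held 3 GC boxes, that of HBEGF held 5, of which a pair share bases, and that of EGFR held 2. The window of ERBB2 held no GC box and 1 AP-1 match. A GC box was present in 42.6% of 35116 promoter windows of this length, and an AP-1 match in 6.57%. The other motifs, present in 1.65% (cyclic AMP response element), 11.9% (TEAD site) and 10.7% (TATA box) of all windows, had no match in these 4. The GC content was 75.6% for TGFA, 76.4% for HBEGF, 73.6% for EGFR and 65.6% for ERBB2, against a median of 58.0% over all windows. TGFA and EGFR each had a further start, which is not shown and differed from the window described. That of TGFA had a GC content of 64.0% and no match to any of the motifs. That of EGFR had a GC content of 38.8%, no GC box, 2 AP-1 matches, 1 TEAD site and 2 TATA boxes.

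A gene was represented by its brightest probe and was called when its normalized signal differed at least 2-fold between the arrays compared and the brighter array detected it. Of the 8 genes with a probe, 6 could be compared in each line, and the calls were few. TGFA was the 1 gene called in shPTK7 cells, where it was higher, beside 1.32% of 12250 tested genes called higher and 1.76% called lower. NRG1 was the 1 gene called in PTK7 cells, where it was lower, beside 2.79% of tested genes called higher and 3.98% called lower. TGFA was again the 1 gene called in Chz cells, where it was higher, beside 2.26% called higher and 1.97% called lower. ERBB2 was the 1 gene called in sPTK7 cells, where it was lower, beside 2.08% called in each direction. In cPTK7/622-1070 cells 0 of the 6 were called, beside 0.783% called higher and 0.85% called lower. In cPTK7/726-1070 cells 0 of the 6 were called, beside 1.7% called higher and 1.76% called lower. The median log2 fold of the 6 genes was 0.00 in shPTK7, -0.23 in PTK7, 0.28 in Chz, 0.08 in sPTK7, 0.01 in cPTK7/622-1070 and -0.10 in cPTK7/726-1070 cells, while that of all tested genes lay between -0.01 and 0.01. Arrays of whole cultures measure RNA per unit of total RNA, so fewer cells that make a transcript and less of it per cell cannot be told apart.

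**Figure D1:**
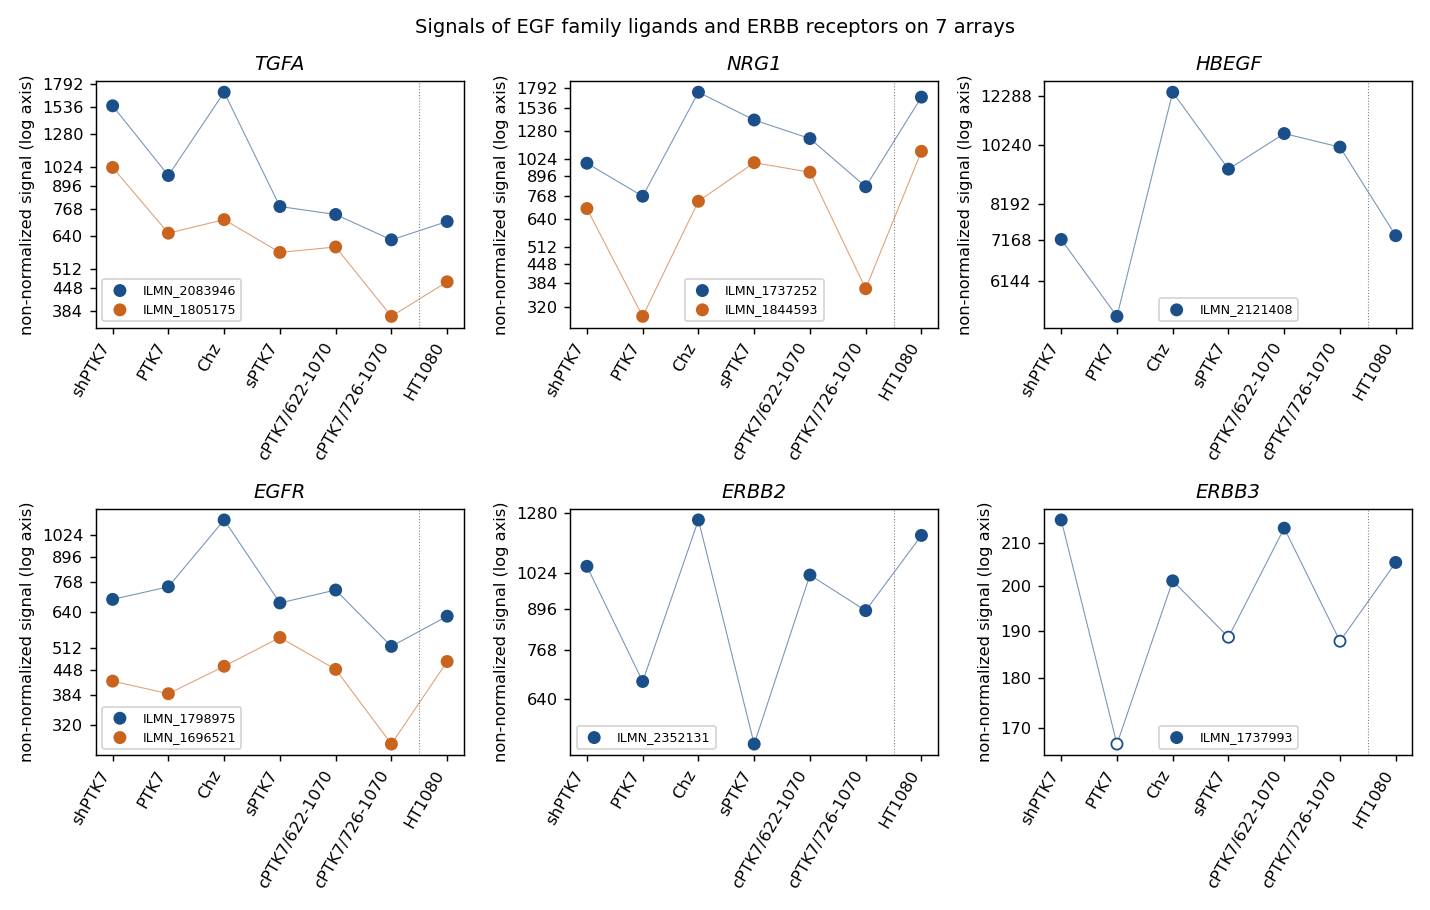
Non-normalized signal (log axis) of each compared gene on the 7 arrays, 1 point per array, with HT1080 cells right of the dotted line; filled points were detected, open points were not, thin lines only join the points of a probe, and colours separate the probes of a gene. TGFA peaked in shPTK7 and Chz cells, NRG1 was lowest in PTK7 cells, and ERBB2 was lowest in sPTK7 cells at a signal of 541.

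TGFA (chromosome 2, bases 70447284 to 70553826 of GRCh38.p14) encodes transforming growth factor alpha, a ligand of EGFR. Its brighter probe, ILMN_2083946, had a signal of 1549 in shPTK7, 964 in PTK7, 1698 in Chz, 781 in sPTK7, 739 in cPTK7/622-1070 and 622 in cPTK7/726-1070 cells, against 705 in HT1080 cells. shPTK7 and Chz cells stood above the other 5 arrays. After normalization TGFA was 2.33-fold higher in shPTK7 cells and 2.41-fold higher in Chz cells than in HT1080 cells, and 0.678% and 1.05% of tested genes rose by more in these lines. In PTK7 cells the log2 fold was 0.67, below the threshold, and in sPTK7 cells it was 0.34. Both lines with a C-terminal fragment lay within 0.03 of HT1080 cells on the log2 scale, and without normalization between arrays cPTK7/726-1070 cells lay at -0.18.

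The second TGFA probe, ILMN_1805175, gave 1018 in shPTK7, 651 in PTK7, 714 in Chz, 571 in sPTK7, 593 in cPTK7/622-1070 and 370 in cPTK7/726-1070 cells, against 468 in HT1080 cells. Its log2 fold of 1.33 in shPTK7 cells was close to the 1.22 of the brighter probe. In Chz cells it was 0.59 against 1.27 for the brighter probe, a gap of 0.68, and the median of both probes in Chz cells was under 2-fold, at 0.93. The call in shPTK7 cells therefore held on both probes and the call in Chz cells on 1 of them. The annotation ties the 2 probes to different transcript records (NM_003236 for the brighter).

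NRG1 (chromosome 8, bases 31639245 to 32774046) encodes neuregulin 1, which binds ERBB3 and ERBB4 and is made in many isoforms. Of its 7 probes, 2 were detected on every array, 1 on 5 arrays and 4 on none. Among the undetected was ILMN_2298888, annotated with NM_013962 like the brightest probe. The brightest, ILMN_1737252, gave 991 in shPTK7, 764 in PTK7, 1734 in Chz, 1393 in sPTK7, 1204 in cPTK7/622-1070 and 823 in cPTK7/726-1070 cells, against 1669 in HT1080 cells. Chz and HT1080 cells had the highest signals, and PTK7, cPTK7/726-1070 and shPTK7 cells the lowest. NRG1 was 2.24-fold lower in PTK7 cells, and 2.83% of tested genes were lower still. It missed the threshold in shPTK7 cells at a log2 fold of -0.94 and in cPTK7/726-1070 cells at -0.92. The log2 folds were -0.61 in cPTK7/622-1070, -0.13 in Chz and -0.12 in sPTK7 cells, and that of Chz cells turned positive when the arrays were not normalized to each other.

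The other NRG1 probe detected throughout, ILMN_1844593, is annotated with a different transcript record from the brightest and spread more widely. It gave 693 in shPTK7, 296 in PTK7, 734 in Chz, 995 in sPTK7, 923 in cPTK7/622-1070 and 368 in cPTK7/726-1070 cells, against 1088 in HT1080 cells. PTK7 and cPTK7/726-1070 cells stood below the other 5 arrays on this probe, with log2 folds of -2.45 and -1.77, which are 5.48-fold and 3.40-fold lower. Both probes were lower than in HT1080 cells in 5 of the 6 lines and disagreed in sign only in sPTK7 cells, where the folds were -0.12 and 0.03. The widest gap between them was 1.29, in PTK7 cells. The probe detected on 5 arrays, ILMN_1811954, ranged from 181 in PTK7 to 235 in HT1080 cells, and it was not detected in PTK7 and Chz cells.

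In PTK7 cells, where NRG1 was lowest, 4 of the 6 mesenchymal markers were also called lower, beside 3.98% of all tested genes. VIM and FN1 were not called there. Other lines had markers called lower too, 2 in cPTK7/726-1070 and 1 each in Chz, sPTK7 and cPTK7/622-1070 cells. SPARC had 3654 in PTK7 cells against 10849.6 in HT1080 cells, CDH2 4568 against 11228, COL5A1 269 against 557 and COL6A3 1391 against 10140.4. The summed signal of the 6 markers was 59397 in PTK7 and 64049 in cPTK7/726-1070 cells, the lowest of the arrays, 76105 in shPTK7, 82016 in sPTK7, 83016 in cPTK7/622-1070 and 100646 in Chz cells, against 90545 in HT1080 cells. The part these genes have in the NRG1 values was not tested.

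HBEGF (chromosome 5, bases 140332843 to 140346603) encodes heparin-binding EGF-like growth factor, whose precursor is also the diphtheria toxin receptor. Its single probe, ILMN_2121408, gave 7181 in shPTK7, 5382 in PTK7, 12472 in Chz, 9348 in sPTK7, 10682 in cPTK7/622-1070 and 10152 in cPTK7/726-1070 cells, against 7284 in HT1080 cells. Chz, both C-terminal fragment lines and sPTK7 cells lay above HT1080 cells, and PTK7 cells were the lowest of the 7. The log2 folds were 0.64 in Chz, 0.55 in sPTK7, 0.58 in cPTK7/622-1070 and 0.58 in cPTK7/726-1070 cells, none of which passed 2-fold. They were -0.09 in shPTK7 and -0.36 in PTK7 cells. In cPTK7/622-1070 cells, the line with the narrowest spread of folds over all genes, 4.42% of tested genes were higher than HBEGF.

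EREG and BTC, which encode epiregulin and betacellulin, were not detected on any array. The signal of the EREG probe ranged from 156 to 182 and that of the BTC probe from 129 to 163, with array medians over all probes of 173.5 to 184.7. Both genes lie near AREG on chromosome 4 (EREG at bases 74365145 to 74388749, AREG at 74445136 to 74455005 and BTC at 74744759 to 74794523). No fold is given for either, since no array detected them.

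EGFR (chromosome 7, bases 55019017 to 55211628) encodes the receptor of EGF and TGFA, and its probes went different ways. The brightest, ILMN_1798975, annotated with NM_005228, gave 691 in shPTK7, 747 in PTK7, 1126 in Chz, 676 in sPTK7, 732 in cPTK7/622-1070 and 518 in cPTK7/726-1070 cells, against 624 in HT1080 cells. Chz cells stood above the other arrays, with a log2 fold of 0.81 that stayed under 2-fold but was exceeded by 4.05% of tested genes. The next largest fold was 0.45, in PTK7 cells. The probe ILMN_1696521, annotated with NM_201282, a transcript of a shortened receptor without the kinase domain, gave 419 in shPTK7, 388 in PTK7, 459 in Chz, 547 in sPTK7, 450.0 in cPTK7/622-1070 and 285 in cPTK7/726-1070 cells, against 472 in HT1080 cells. On that probe the Chz array was not raised (log2 fold -0.28) and the cPTK7/726-1070 array was the lowest, at -0.96. The probes had the same direction in only 2 of the 6 lines, and in Chz cells they differed by 1.09 on the log2 scale. The other 2 EGFR probes were detected on no array. Among them was ILMN_1755535, which is annotated with NM_201282 as well and gave signals of 132 to 144. The reading of ILMN_1696521 as the shortened transcript therefore rests on the annotation alone.

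ERBB2 (chromosome 17, bases 39688094 to 39728658) encodes the receptor without a ligand, known as HER2. ILMN_2352131 gave 1049 in shPTK7, 683 in PTK7, 1247 in Chz, 541 in sPTK7, 1016 in cPTK7/622-1070 and 889.6 in cPTK7/726-1070 cells, against 1177 in HT1080 cells. The sPTK7 array was the lowest and the PTK7 array the next. ERBB2 was 2.34-fold lower in sPTK7 cells, and 1.32% of tested genes were lower still. In PTK7 cells the log2 fold was -0.79, and in the other 4 lines it lay between -0.31 and -0.12. Normalized ERBB2 was highest in HT1080 cells among the 7 arrays, although the Chz signal was above it before normalization. A second probe was detected only on the arrays of the C-terminal fragment lines, at 204 and 203, and the remaining probe on none. That undetected probe is annotated with NM_004448, as is ILMN_2352131.

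ERBB3 (chromosome 12, bases 56080108 to 56103505), a receptor that NRG1 binds, was at the detection limit. Its brightest probe gave 216 in shPTK7, 167 in PTK7, 201 in Chz, 189 in sPTK7, 214 in cPTK7/622-1070 and 188 in cPTK7/726-1070 cells, against 205 in HT1080 cells, and shPTK7, Chz, cPTK7/622-1070 and HT1080 cells detected it. The lowest signal that counted as detected was 191.9 to 203.1, depending on the array. The log2 fold was 0.12 in shPTK7, -0.08 in Chz and 0.01 in cPTK7/622-1070 cells, and in the other 3 lines ERBB3 had only a bound, such as at least 1.07-fold lower in PTK7 cells after background correction and at least 1.02-fold lower without it. The other 2 ERBB3 probes were detected on no array.

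**Figure D2:**
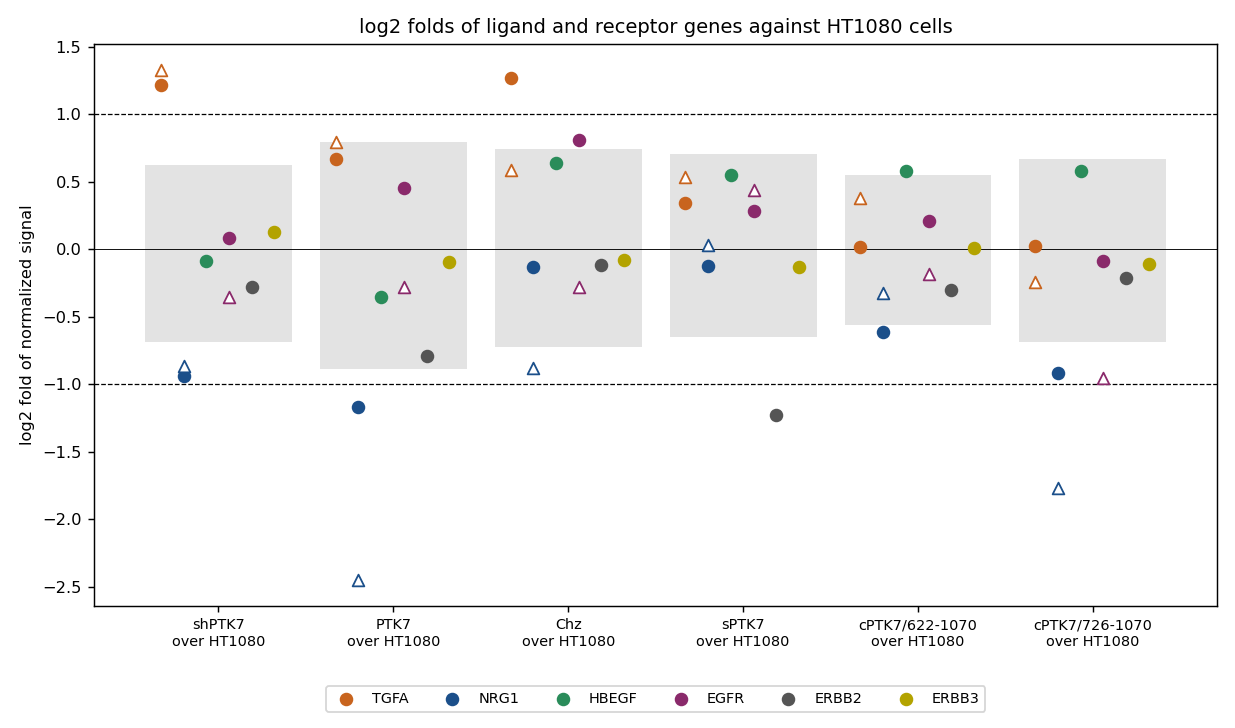
log2 fold of normalized signal of each line over HT1080 cells; filled circles are the brightest probe of a gene, open triangles a second probe detected on all 7 arrays, dashed lines mark 2-fold, and grey bands span the 5th to 95th percentile of all tested genes. On the brightest probes TGFA lies above 2-fold in shPTK7 and Chz cells, NRG1 below it in PTK7 cells (-1.17) and ERBB2 below it in sPTK7 cells (-1.23). The second TGFA probe stays under 2-fold in Chz cells (0.59), below its value in PTK7 cells (0.79). The second NRG1 probe reaches -2.45 in PTK7 cells.

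PTK7 and Chz cells carry constructs that differ by the Chuzhoi mutation, so their arrays were set against each other directly, without the HT1080 array. NRG1 was the 1 gene called, and it was higher in Chz cells, beside 6.02% of tested genes called higher and 4.39% called lower. It had 1734 in Chz cells against 764 in PTK7 cells, 2.05-fold higher, and the other NRG1 probe had 734 against 296, 2.97-fold higher. HBEGF, at 12472 in Chz and 5382 in PTK7 cells, was 1.99-fold higher, just under the threshold. The log2 folds of Chz over PTK7 cells were 0.67 for ERBB2, 0.60 for TGFA and 0.35 for EGFR, and at least 0.02 for ERBB3, which was not detected in PTK7 cells. The median over the 6 genes was 0.64, beside -0.01 over all tested genes, whose 5th and 95th percentiles were -0.95 and 1.08. The second probes of TGFA and EGFR gave -0.20 and 0.00, so the TGFA probes differed in direction. The NRG1 call rested on a value close to the threshold and was lost without background correction, at a log2 fold of 0.90.

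**Figure D3:**
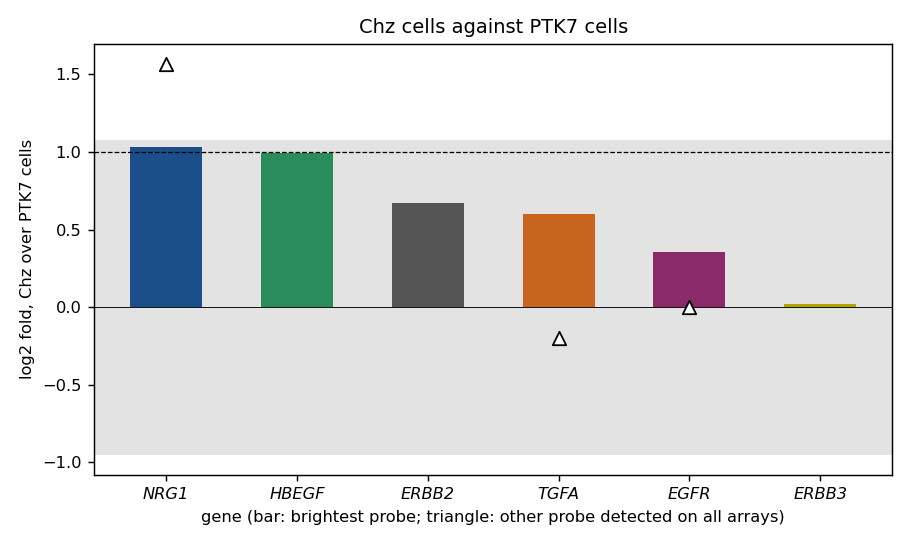
log2 fold of normalized signal in Chz over PTK7 cells; bars are the brightest probe of each gene, triangles a second probe detected on all 7 arrays, the dashed line marks 2-fold, and the grey band spans the 5th to 95th percentile of all tested genes. NRG1 (1.03) and HBEGF (0.99) are the highest bars and lie near the upper edge of the band at 1.08, and the second TGFA probe lies below 0.

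The C-terminal fragments were likewise compared with each other. None of the 6 genes was called in cPTK7/726-1070 against cPTK7/622-1070 cells, beside 1.24% of tested genes called higher and 1.0% called lower. NRG1 had a log2 fold of -0.31, EGFR -0.30 and HBEGF 0.00. The second NRG1 probe gave 368 in cPTK7/726-1070 cells against 923 in cPTK7/622-1070 cells, 2.72-fold lower, and only 0.152% of tested genes were lower still. The second EGFR probe gave 285 against 450.0, a log2 fold of -0.77.

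The rest of the pathway was described by 6 lists. Unless a comparison is named, counts of called genes in a list are over any of the 6 lines against HT1080 cells. In each line taken alone, 0.783% to 3.98% of all tested genes were called in a given direction. The share of all genes called in any line was not taken, so the list counts cannot be set against it. Of the other EGF family ligands and ERBB4, 5 of 6 had a probe and none was called. EGF itself was detected in Chz cells at 223 and in sPTK7 cells at 272, against 225 in HT1080 cells, and on no other array. NRG2 was detected in cPTK7/726-1070 cells alone at 205, and NRG3 in sPTK7 cells alone at 193. Among 13 genes of ligand shedding and trafficking, ADAM17 and its partners RHBDF1, RHBDF2 and FRMD8 were called in no line, and 3 genes were called. ADAM19, a protease that cleaves neuregulin in mice, had 2137 in PTK7 cells against 6541 in HT1080 cells, 2.96-fold lower. ADAM9 had 235 against 406 in the same pair, 2.64-fold lower. BACE1, a protease that cleaves neuregulin in mouse nerve, was not detected in HT1080 cells and was called higher in shPTK7, sPTK7 and Chz cells, which had signals of 353, 314 and 289, against 194 in HT1080 cells. The bounds were at least 3.50-fold, 3.45-fold and 2.36-fold higher after background correction, and at least 1.73-fold, 1.71-fold and 1.40-fold higher without it, where none was called. With Chz set against PTK7 cells, 4 of the 11 shedding genes compared were called higher and none lower, beside 6.02% and 4.39% of all tested genes. They were ADAM19 (9345 in Chz cells against 2137 in PTK7 cells), ADAM9, ADAM10 (log2 fold 1.01, close to the threshold) and BACE1, which was not detected in PTK7 cells and was at least 2.16-fold higher after background correction and at least 1.36-fold higher without it.

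Of 27 adaptors and kinases downstream of the receptors, 19 had a probe and none was called in any line against HT1080 cells. With cPTK7/726-1070 set against cPTK7/622-1070 cells, 2 of the 18 compared were called lower and none higher, beside 1.0% and 1.24% of all tested genes. SOS1, an exchange factor of RAS, was at least 2.42-fold lower after background correction and at least 1.43-fold lower without it. PIK3CB, a catalytic subunit of PI3K, was 2.13-fold lower. Of 17 inhibitors that act on the receptors, 16 had a probe and 1 was called. LRIG1, a membrane protein that promotes degradation of ERBB receptors, had 373 in PTK7 cells and 562 in sPTK7 cells, against 1236 in HT1080 cells, which is 4.26-fold and 2.36-fold lower. A second LRIG1 probe was called lower in PTK7 cells only, with log2 folds of -1.85 in PTK7 and -0.86 in sPTK7 cells. The family genes called lower in these lines were different ones, NRG1 in PTK7 and ERBB2 in sPTK7 cells. LRIG1 also had a log2 fold of -0.88 in Chz cells, not called, where TGFA was called higher. A link of LRIG1 with the family genes was not tested. With Chz set against PTK7 cells, 3 of the 15 inhibitors compared were called higher and none lower, beside 6.02% and 4.39% of all tested genes. They were LRIG1, SOCS4 and SOCS5, higher by 2.32-fold, 2.15-fold and 2.22-fold.

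Of 9 co-receptors and heparan sulphate partners, all had a probe and 2 were called. MUC1, a membrane mucin that associates with ERBB receptors, had 845 in Chz cells against 431 in HT1080 cells, 2.08-fold higher, and a second MUC1 probe was called too. SDC2, a heparan sulphate proteoglycan, had 264 in cPTK7/726-1070 cells against 206 in HT1080 cells, 2.24-fold higher after background correction. Of 17 genes that ERK signaling induces, 4 were called. EGR1, an immediate early transcription factor, had 714 in PTK7, 678 in Chz and 478 in sPTK7 cells, against 247 in HT1080 cells, and was 5.90-fold, 4.32-fold and 3.48-fold higher. FOS, another such factor, had 269 in PTK7 cells against 172 in HT1080 cells, where it was not detected, at least 2.49-fold higher after background correction and at least 1.44-fold higher without it. SPRY2, a feedback inhibitor of receptor tyrosine kinases, had 8355 in Chz cells against 2566 in HT1080 cells, 3.13-fold higher. DUSP4, a phosphatase of the ERK kinases, was not detected in PTK7 cells and was at least 2.53-fold lower there after background correction and at least 1.47-fold lower without it, and it was 2.17-fold higher in cPTK7/726-1070 cells. The median log2 fold of the ERK list lay between -0.04 in shPTK7 and 0.29 in cPTK7/622-1070 cells, and none of its genes was called in either of these lines. Without background correction the folds of BACE1, ADAM9, FOS, DUSP4, MUC1 and SDC2 were all under 2, and those of ADAM19, LRIG1, EGR1 and SPRY2 were still called. The calls in sPTK7 cells of LRIG1 and EGR1 were lost against the median of the 7 arrays, at log2 folds of -0.86 and 0.82, and that of EGR1 also without normalization between arrays, at 0.95.

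**Figure D4:**
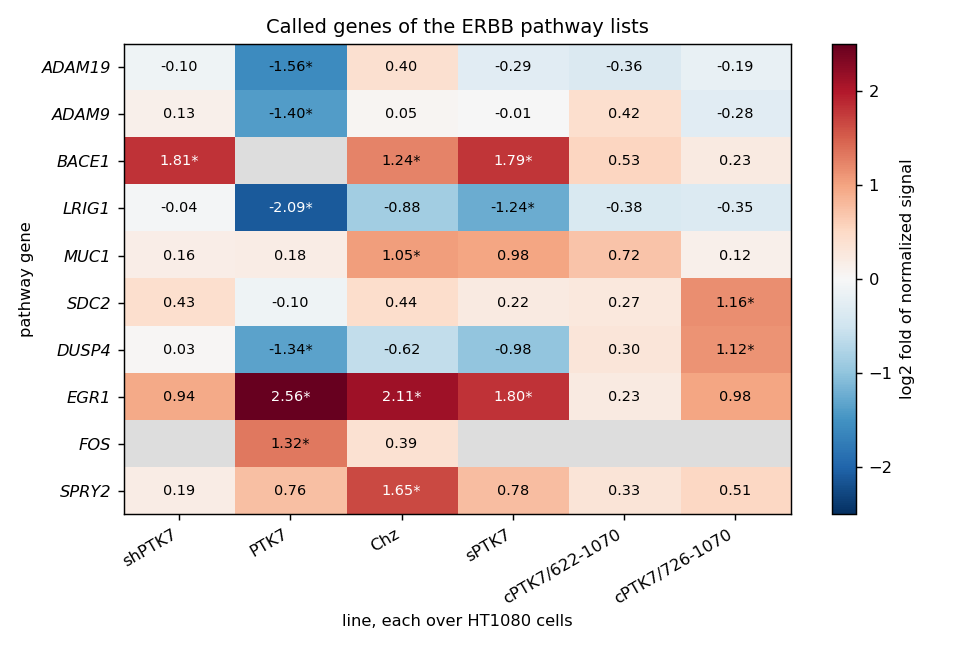
log2 fold of normalized signal over HT1080 cells for the pathway genes called in at least 1 line (rows) in each line (columns); asterisks mark calls, grey cells had no array that detected the gene, and red and blue stand for higher and lower. EGR1 is called higher in PTK7, Chz and sPTK7 cells, LRIG1 lower in PTK7 and sPTK7 cells, and the cPTK7/622-1070 column holds no call.

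For the genes of the family that were called, the genes with the most similar pattern of log2 signal over the 7 arrays were sought. The search covered 1151 genes that were detected on all 7 arrays and called in at least 1 line. These are descriptions of 7 arrays of related cells on 1 chip, and the best of so many genes would have a high r in any case. TGFA was most like C4orf33 (Pearson r 0.95), ARHGAP18 (0.92) and PYROXD1 (0.92). C4orf33 put the 7 arrays in the same order as TGFA, with 414 in shPTK7 and 462 in Chz cells against 263 in HT1080 cells. NRG1 was most like VASP (r 0.98), TAGLN (0.95) and SLC22A4 (0.95), of which VASP and TAGLN encode proteins of the actin cytoskeleton. TAGLN had 720.3 in PTK7 and 992 in cPTK7/726-1070 cells, against 4357 in HT1080 cells. ERBB2 was most like HMGCS1 (r 0.97), an enzyme of cholesterol synthesis, MAGEE1 (0.96) and SVIL (0.94). SVIL ordered the arrays as ERBB2 did, with 366 in sPTK7 cells against 1192 in HT1080 cells. HMGCS1 and MAGEE1 ordered them less alike, with Spearman rank correlations of 0.68 and 0.71.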

How the data were processed

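RNA of 7 HT1080-derived cultures was labelled with biotin and hybridized to Illumina HumanHT-12 v4 BeadChips, with all 7 arrays on 1 chip. The deposited intensity of each of 47230 probes is a mean bead signal read out by the authors on a BeadArray Reader, with no scaling between arrays. The deposited detection p-value is the fraction of negative controls that reach it. A second table of intensity values, normalized by the authors with GeneSpring GX by a method not given in the sources used here, kept the rank order of every array and served as an alternative. The unscaled signals went through normal-exponential background correction and quantile normalization and were put on log2 (limma 3.58.1, neqc with an offset of 16, in R 4.3.3). The background was inferred from the detection p-values. Other steps used Python 3.11.15, numpy 2.4.6, pandas 2.3.3 and matplotlib 3.10.9.

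Probes were named through the platform annotation, in which 30112 had 1 gene symbol, 8 several and 17110 none. The probe with the highest mean log2 signal stood for its gene. Signals under an array's lowest detected signal were raised to it, so a fold against an undetected array is a lower bound, and no fold is given where neither array detected the gene. Calls needed a fold of 2 and a detection p-value below 0.05 on the brighter array. Welch's test named in the methods was not run, since each line has 1 array. The processing was tested on simulated data with known folds, all above 2-fold and put into genes clearly detected in HT1080 cells. That test therefore does not cover dim genes or folds just over 2. Start sites and upstream sequences came from RefSeq tables, and no genome, probe sequence or protein sequence was used.

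The genes followed and all gene lists were chosen with earlier results of these data known. The genes named are the 9 family genes with every probe, PTK7, up to 4 called genes of each list against HT1080 cells with the largest fold, and the 3 genes most like each called family gene. Genes named in the comparisons between transfected lines, and uncalled or undetected genes of the lists and markers, were named after their values were seen. The alternatives were other background corrections, scalings, floors, detection limits, fold thresholds, probe rules and the median of the 7 arrays as the comparator.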

Additional observations from a re-analysis of the deposited data

How the results depend on the processing

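Of 413 values of the family genes under the alternatives, called or not, 401 kept their side of 2-fold, 8 fell under it and 4 passed it. Most of the 413 belong to genes not called in the main setting, which could not fall under it. The 401 therefore do not measure how well the calls held. The sign changed in 27 of the 413, none of them called under either setting. Of 144 values of the other genes called against HT1080 cells, 107 were still called and 37 fell under 2-fold. These 144 are of called genes only, so their share cannot be set beside that of the 413. The calls of TGFA in shPTK7, NRG1 in PTK7 and ERBB2 in sPTK7 cells were lost only with the median of the 7 arrays in place of HT1080 cells, at 0.87, -0.55 and -0.95. In each of shPTK7, PTK7, Chz and sPTK7 cells this comparator left 0 of the family genes called in place of 1. With the median over probes, 0 were called in Chz cells. At 1.5-fold, 2 were called in shPTK7, 3 in PTK7, 3 in Chz, 1 in cPTK7/622-1070 and 1 in cPTK7/726-1070 cells, and 4 with Chz set against PTK7 cells. Counting any probe, chosen after seeing the data, gave 1 in cPTK7/726-1070 cells, and 1 with these set against cPTK7/622-1070 cells, NRG1 in both. No normalization between arrays, also added later, gave 1 in cPTK7/726-1070 cells and 2 in Chz against PTK7 cells. In Chz against PTK7 cells the count was 0 without background correction, with 75th percentile scaling and with the authors' normalized table. The causes were not tested.

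Without background correction fewer genes were called. The counts, higher and lower, were 38 and 58 in place of 162 and 215 in shPTK7, 118 and 178 in place of 335 and 477 in PTK7, 77 and 77 in place of 275 and 240 in Chz, 72 and 81 in place of 250 and 250 in sPTK7, 18 and 14 in place of 94 and 102 in cPTK7/622-1070, and 56 and 56 in place of 204 and 211 in cPTK7/726-1070 cells. With Chz set against PTK7 cells they were 296 and 222 in place of 723 and 528. Without normalization between arrays the split of calls moved, to 87 higher and 224 lower in PTK7, 143 and 56 in Chz, 56 and 100 in sPTK7, 21 and 9 in cPTK7/622-1070 and 35 and 105 in cPTK7/726-1070 cells. In Chz against PTK7 cells it was 645 and 113, with 626 and 729 under 75th percentile scaling, and in cPTK7/726-1070 against cPTK7/622-1070 cells it was 9 and 69 in place of 147 and 119. The median of all genes then moved to -0.11 in sPTK7 and -0.14 in cPTK7/726-1070 cells. No paired analysis was possible because each line had 1 array. Signals near the detection limit, such as those of ERBB3, EREG and BTC, limit what could be compared.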
